A study of Mus musculus with 2 samples.

Results

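The genes described here are 8 markers of the resident macrophages that lie along blood vessels: Lyve1, Folr2, Cbr2, F13a1, Pf4, Fcna, Vsig4 and Cd209f. They were taken by symbol from a table of 20330 genes, and all 8 were found in it. The data were RNA sequencing of adipose tissue macrophages (ATM), sorted from visceral fat with antibodies against CD11b and the macrophage antigen that Adgre1 encodes. All mice were C57BL/6, lacked ApoE, carried loxP-flanked Hif-1α alleles and had been on a high-fat diet for 12 weeks. WT mice were hMRP8cre-;Hif-1αfl/fl;ApoE-/-. KO mice were hMRP8cre+;Hif-1αfl/fl;ApoE-/-, with Cre under the human MRP8 promoter, a myeloid promoter, so that Hif-1α is deleted in myeloid cells. Thus neither group was wild type at Apoe. Apoe was nonetheless listed at 94.3 FPKM in WT against 117 FPKM in KO, a value for the whole gene that does not show whether the transcript is intact. There was 1 library for each genotype, the labels give no age, and whether the animals were pooled is not stated.

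Resident macrophages of fat sit beside capillaries, take up debris and serum proteins, and differ in expression from macrophages that arrive as monocytes. In many tissues those near vessels are recognised by the hyaluronan receptor LYVE1 and by folate receptor beta, the product of Folr2. The remaining genes encode a complement receptor, a lectin of the DC-SIGN family, secreted proteins for innate defence and clotting, and a carbonyl reductase. These genes are known as markers, and RNA from sorted cells does not show where in the tissue a cell lay.

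Of the 8 genes, 7 were above 200 FPKM in both libraries and 1, Vsig4, was close to 0 in WT. FPKM is the number of sequenced fragments scaled to transcript length and to the mapped fragments of the library, so levels can be compared between genes. In KO 7 of the 8 were higher and 1, Cd209f, was lower. Fcna was 1.99-fold and Lyve1 1.89-fold higher, and the other highly expressed genes differed by less. Only Vsig4 passed a 3-fold difference, from 0.127 FPKM in WT to 9.65 FPKM in KO. With 1 library per genotype no difference could be tested, and none has a replicate check.

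The libraries summed to 585823 FPKM in WT against 568329 FPKM in KO, on an estimated 5860000 and 7470000 fragments. Hif1a itself was at 30.4 FPKM in WT against 20.97 FPKM in KO. Its value covers the whole gene and does not show the deleted part. Of 14 macrophage markers in the table, 0 were at 0 in either library. Adgre1, whose product was used in the sort, was at 299 FPKM in WT against 239 FPKM in KO, and Csf1r, the receptor for the macrophage growth factor CSF1, at 615 and 719 FPKM. The highest were C1qb, a chain of complement C1q, at 4726 and 4663 FPKM, and Lyz2, lysozyme, at 3936 and 4080 FPKM. The median difference of these markers was 0.01. Differences are given throughout as log2(FPKM + 1), KO minus WT, for genes at 1 FPKM or more in at least 1 library. A listed 0 need not mean that the RNA was absent, since genes that every cell uses were also at 0 in a single library: Anapc15, a subunit of the anaphase-promoting complex, was at 0 in WT and 51.3 FPKM in KO, and Aimp2, of the tRNA synthetase complex, was at 38.4 FPKM in WT but 0 in KO. Counts past 3-fold include such genes. In bulk RNA, a change in the number of cells of a type and a change in RNA per cell cannot be told apart.

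Promoter sequences of the markers are shown first, because HIF-1, the factor whose subunit was deleted, binds DNA near its targets. RefSeq windows of 300 bases, from 250 before to 50 after the transcription start (GRCm38.p6), were found for 7 of the 8 genes, all but Lyve1. Folr2 and F13a1 had 2 windows each, which made 9. They were searched on both strands for ACGTG or GCGTG, the core of the HIF response element, for TGCTGA, a part of the site of MAF factors, and for GAGGAA, the core of the site of PU.1. MAF factors and PU.1 are transcription factors of macrophages. None of these words contains another. The windows below are those of Fcna, with the largest difference among the highly expressed genes that had a window, of Pf4, the only gene with a HIF core, of Vsig4, which passed 3-fold, and of Cd209f, the gene that was lower in KO. Each is printed 5′ to 3′ on the strand of its gene, and capitals mark the searched words.

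Fcna (minus strand, chr2:25627925-25628224): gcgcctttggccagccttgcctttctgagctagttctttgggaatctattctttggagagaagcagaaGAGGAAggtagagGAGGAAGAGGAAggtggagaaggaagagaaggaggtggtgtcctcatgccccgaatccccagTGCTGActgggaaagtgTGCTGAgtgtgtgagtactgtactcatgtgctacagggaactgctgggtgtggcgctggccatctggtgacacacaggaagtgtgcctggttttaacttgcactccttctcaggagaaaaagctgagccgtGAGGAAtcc
Pf4 (plus strand, chr5:90772185-90772484): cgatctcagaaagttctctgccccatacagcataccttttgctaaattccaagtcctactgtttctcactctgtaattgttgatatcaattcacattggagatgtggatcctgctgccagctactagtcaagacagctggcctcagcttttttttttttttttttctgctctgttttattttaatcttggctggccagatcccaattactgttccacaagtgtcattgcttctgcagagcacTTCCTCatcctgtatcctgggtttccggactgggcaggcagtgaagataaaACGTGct
Vsig4 (minus strand, chrX:96293389-96293688): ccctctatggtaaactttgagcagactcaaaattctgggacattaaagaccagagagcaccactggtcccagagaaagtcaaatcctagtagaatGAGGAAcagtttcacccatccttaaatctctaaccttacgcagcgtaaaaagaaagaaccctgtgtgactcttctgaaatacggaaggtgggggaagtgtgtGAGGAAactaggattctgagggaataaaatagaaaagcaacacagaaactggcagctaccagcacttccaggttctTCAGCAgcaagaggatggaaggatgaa
Cd209f (minus strand, chr8:4105715-4106014): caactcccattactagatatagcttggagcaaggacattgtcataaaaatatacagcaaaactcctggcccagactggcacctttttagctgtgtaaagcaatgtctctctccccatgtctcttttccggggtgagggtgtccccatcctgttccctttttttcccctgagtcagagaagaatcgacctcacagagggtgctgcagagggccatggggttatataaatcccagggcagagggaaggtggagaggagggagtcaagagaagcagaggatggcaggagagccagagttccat

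The HIF core was present in 1 of the 9 windows, that of Pf4, where it lies 44 to 48 bases into the transcript. Of all 32851 RefSeq windows, 43.8% hold it. The MAF word was present in 5 of the 9 windows, against 19.5% of all windows, and the PU.1 word in 6 of the 9, against 28.3%. The Fcna window has the PU.1 word at 4 places and the MAF word at 2. The Cd209f window has none of the words. A match describes letters in a window and is not a measured binding site, and a window without a match says nothing about the factor.

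The receptors on the cell surface were Lyve1, Folr2, Vsig4 and Cd209f. Lyve1 (ENSMUSG00000030787, GRCm38 chr7:110850607-110863239, 6 exons) encodes a receptor for the matrix sugar hyaluronan that is also made by lymphatic endothelium. It was at 239.7 FPKM in WT against 453 FPKM in KO, a difference of 0.92. Its rank among all genes went from 347 to 196. Folr2 (ENSMUSG00000032725, chr7:101839988-101857194, 6 exons) encodes folate receptor beta, which takes up folate. It was the highest of the 8 in WT, at 1712 FPKM, and was at 1859.8 FPKM in KO, a difference of 0.12. Folr2 thus stood near the top of both libraries, at rank 44 in WT and 36 in KO, and differed little between them.

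Vsig4 (ENSMUSG00000044206, chrX:96247203-96293438, 7 exons) encodes CRIg, a receptor for C3b and iC3b, the fragments of complement C3 that coat particles. Its 0.127 FPKM in WT corresponds to an estimated 1 fragment, and its 9.65 FPKM in KO to an estimated 103 fragments. The ratio of 76.0 therefore has a 95% interval (exact, Clopper-Pearson, counting error only) from 14.2 to 3222. On the log2 scale the difference was 3.24. At 9.65 FPKM, Vsig4 was still more than an order of magnitude below each of the other 7 genes in KO, the lowest of which was at 394 FPKM. Low genes often differed this way: among the 4790 genes whose mean lay between 1 and 10 FPKM, 45.6% differed by 3-fold or more in either direction. In that class 3.76% were higher in KO by as much as Vsig4 or more, and 7.29% differed by as much in either direction. Complement C3 itself, which supplies the ligand of CRIg, was at 35.3 FPKM in WT against 34.6 FPKM in KO.

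Cd209f (ENSMUSG00000051906, chr8:4102787-4105835, 8 exons) encodes a C-type lectin of the DC-SIGN family, whose members bind sugars on microbes and on glycoproteins. It was at 490.6 FPKM in WT against 394 FPKM in KO, a difference of -0.32. This was the only one of the 8 genes that was lower in KO, on an estimated 3377 and 3457 fragments. Of the 653 genes with a mean between 100 and 1000 FPKM, 24.7% were lower in KO by as much or more.

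The secreted products were those of Fcna, Pf4 and F13a1. Fcna (ENSMUSG00000026938, chr2:25624666-25628030, 10 exons) encodes ficolin A, a lectin that recognises microbial surfaces and starts the lectin pathway of complement. It was at 234 FPKM in WT against 466 FPKM in KO, a difference of 0.99, the largest among the 7 highly expressed genes. Its rank went from 353 to 193, close to that of Lyve1 in both libraries. Pf4 (ENSMUSG00000029373, chr5:90772435-90773383, 3 exons) encodes platelet factor 4, or CXCL4, a chemokine that binds heparin and is also abundant in platelets. It was at 1448 FPKM in WT against 2115 FPKM in KO, where it was the highest of the 8, and the difference was 0.55. F13a1 (ENSMUSG00000039109, chr13:36867178-37050244, 15 exons) encodes the A chain of clotting factor XIII, the transglutaminase that cross-links fibrin. It was at 520.2 FPKM in WT against 585 FPKM in KO, a difference of 0.17.

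The only enzyme of intermediary metabolism was the product of Cbr2 (ENSMUSG00000025150, chr11:120729489-120732114, 8 exons), a carbonyl reductase that uses NADPH. Cbr2 was at 1344 FPKM in WT against 1679.7 FPKM in KO, a difference of 0.32. Together the 8 genes summed to 5988 FPKM in WT, 1.02% of the library's total, and to 7563 FPKM in KO, 1.33% of it. The estimated fragments behind the 7 highly expressed genes ranged from 1882 for Fcna in WT to 17058 for F13a1 in KO, so counting error is small for them.

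**Figure D1:**
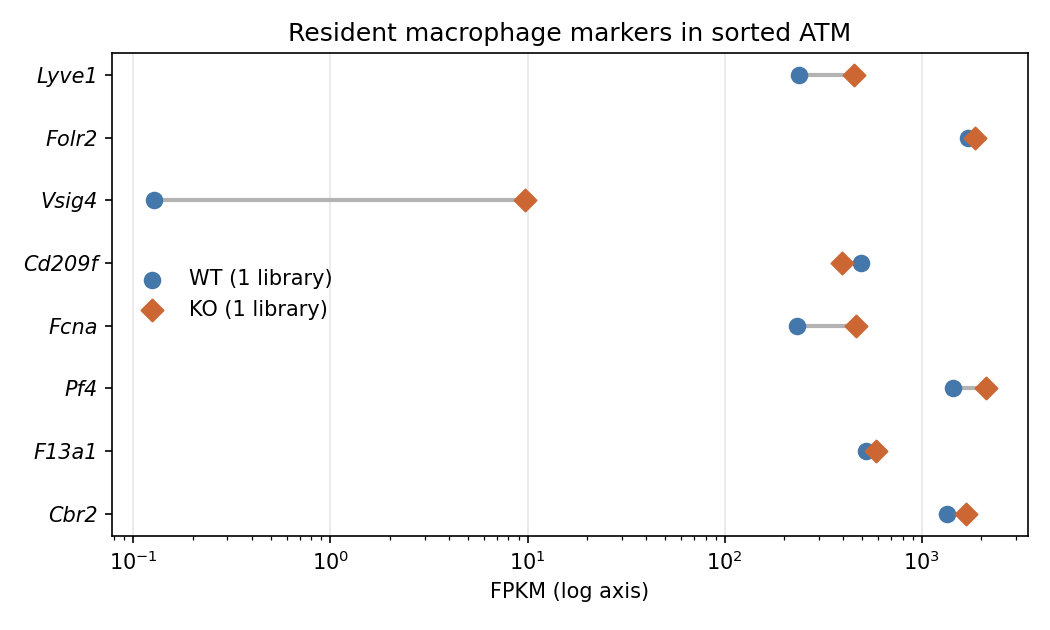
FPKM of each resident macrophage marker (log axis) in the WT library (circles) and the KO library (diamonds), 1 library each, joined by a line for each gene. Of the 8 genes, 7 lie above 200 FPKM in both libraries, and only Vsig4 lies far below, at 0.127 FPKM in WT against 9.65 FPKM in KO.

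In WT the order of the levels was Folr2, Pf4, Cbr2, F13a1, Cd209f, Lyve1, Fcna and Vsig4. In KO Pf4 came before Folr2, and Fcna and Cd209f had exchanged places, while Cbr2, F13a1, Lyve1 and Vsig4 stood where they did in WT. Leaving out Vsig4, the highest level was 7.32 times the lowest in WT and 5.37 times in KO. Which neighbours in the order differ beyond their spread cannot be said without replicates. The gene nearest to each marker in both libraries was sought by distance in log2(FPKM + 1) over the 2 libraries. For Lyve1 and Fcna it was the same gene, Rab7, a regulator of late endosomes, at 234.5 FPKM in WT against 451 FPKM in KO, at distances of 0.03 and 0.05. For Folr2 it was Tyrobp, a signalling adaptor of myeloid receptors, at 1792 and 1858 FPKM, and for F13a1 it was Cyba, a subunit of the NADPH oxidase, at 527 and 612 FPKM.

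The differences were then read against those of all genes. Of the 10297 genes compared, 27.3% passed 3-fold, 13.6% higher and 13.7% lower in KO. Among the 8 markers, 1 passed as higher (Vsig4) and 0 as lower. The share past 3-fold was smaller at high levels than at low ones, with 1.99% of the 653 genes with a mean between 100 and 1000 FPKM and 3.16% of the 95 genes above that, and 0 of the 7 markers at these levels passed. The median difference of the 8 markers was 0.43, and it was 0.32 without Vsig4. Over all genes it was 0.03. Differences above 0 were seen for 7 of the 8 markers and for 51.3% of all genes. Vsig4 is among the 7 and reached 1 FPKM in KO alone, so it could only count as higher.

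Lyve1 and Fcna stood further from 0 than most genes at their level. In the class of 100 to 1000 FPKM, 3.68% were higher in KO by as much as Lyve1 or more and 2.91% by as much as Fcna, and 35.4% by as much as F13a1. In either direction, 9.34% of that class differed by as much as Lyve1 or more and 7.96% by as much as Fcna. Of the 95 genes above 1000 FPKM, 7.37% were higher by as much as Pf4, 13.7% by as much as Cbr2 and 22.1% by as much as Folr2. These shares describe a pair of libraries and not the genotypes.

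**Figure D2:**
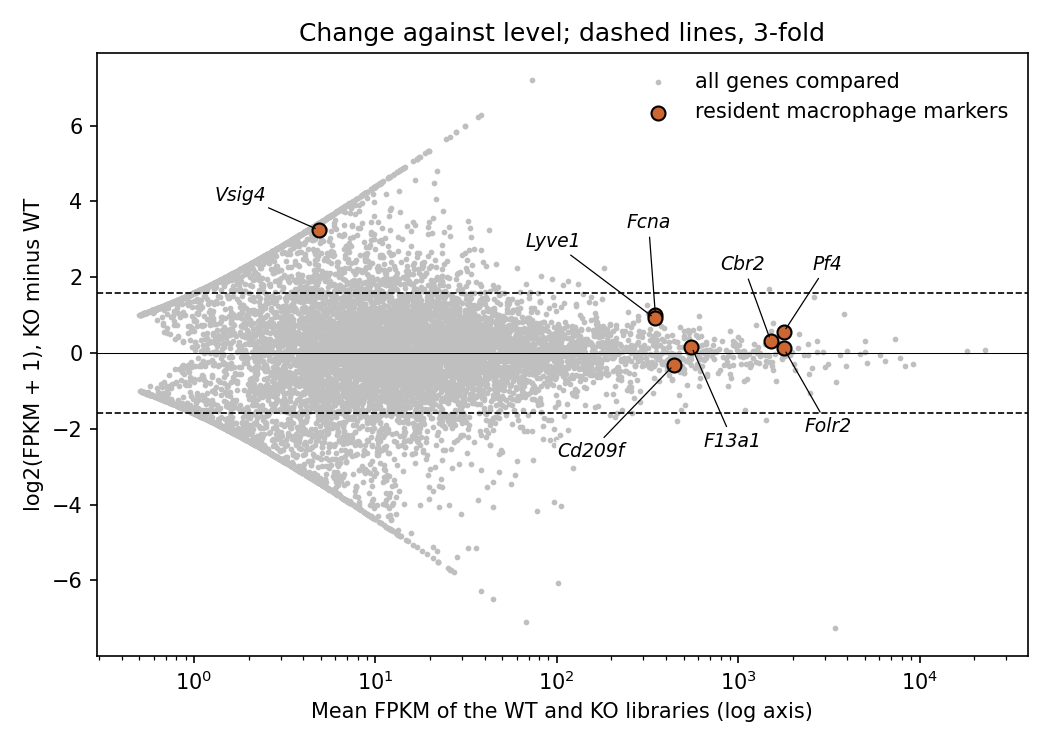
Difference in log2(FPKM + 1), KO minus WT, of the 10297 genes compared (grey) and of the 8 markers (orange) against the mean FPKM of both libraries (log axis), with dashed lines at 3-fold. The spread of all genes narrows with level, and the 7 highly expressed markers lie between -0.32 and 0.99, inside the 3-fold lines.

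Other genes known from resident macrophages were examined next, from a list of 23 that holds none of the 8. Of the 22 compared, 12 were higher and 10 lower in KO, 0 passed 3-fold as higher and 2 as lower, and the median difference was 0.06. The scavenger receptor for haemoglobin, Cd163, was at 130.0 FPKM in WT against 214 FPKM in KO, and Mrc1, the mannose receptor CD206, at 332 and 427 FPKM. Timd4, a receptor for phosphatidylserine on dying cells, was at 53.4 and 25.1 FPKM. The pair past 3-fold were Ccl8, a chemokine, at 2203 FPKM in WT against 649 FPKM in KO, and Cd5l, a secreted scavenger protein, at 13.4 FPKM in WT and listed at 0 in KO. Selenop, a selenium carrier and the highest of the list, was at 4936 and 5022 FPKM. Marco was listed at 0 in both. The list as a whole thus held genes on both sides of 0, whereas the 8 markers lay mostly above it, a contrast that could not be tested.

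Factors and receptors that set macrophage identity also held genes on both sides of 0. Of the 13 compared, 8 were higher and 5 lower, with a median of 0.07. Maf was at 115 FPKM in WT against 108 FPKM in KO, and Spi1, which encodes PU.1, at 367 and 301 FPKM. Id3, an inhibitor of helix-loop-helix factors, was higher in KO, at 33.9 and 72.9 FPKM, and so was Klf2, a zinc-finger factor, at 49.1 and 74.6 FPKM. The only gene past 3-fold was Nr1h3, the oxysterol receptor LXRα, at 12.9 FPKM in WT against 2.97 FPKM in KO.

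Genes of macrophages that gather lipid and of monocytes lay on the other side. Of 12 lipid-associated genes, 9 were lower and 3 higher in KO, with a median of -0.85. Trem2, the lipid receptor that defines them, was at 228 and 155 FPKM, and those past 3-fold were Spp1, at 103 and 8.41 FPKM, and Fabp5, at 130.4 and 39.0 FPKM. The highest of the list were Lgals3, galectin 3, at 1135 and 619.8 FPKM, and Plin2, a coat protein of lipid droplets, at 673 and 707 FPKM. The 3 genes that were higher differed little: Plin2 by 0.07, Cd63 by 0.22 and Fabp4 by 0.02. Of 9 monocyte genes compared, 7 were lower and 2 higher, with a median of -1.47. Ccr2, the chemokine receptor that brings monocytes into tissue, was at 29.4 and 9.78 FPKM, and Fn1, fibronectin, the highest of the list, at 198 and 117 FPKM. Past 3-fold as lower were Ly6c2 (9.39 and 0 FPKM), Chil3 (2.10 and 0 FPKM) and Cx3cr1 (12.1 and 2.99 FPKM), and as higher Plac8 (1.58 and 17.0 FPKM). These values stand beside those of the markers and were not tested against them.

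**Figure D3:**
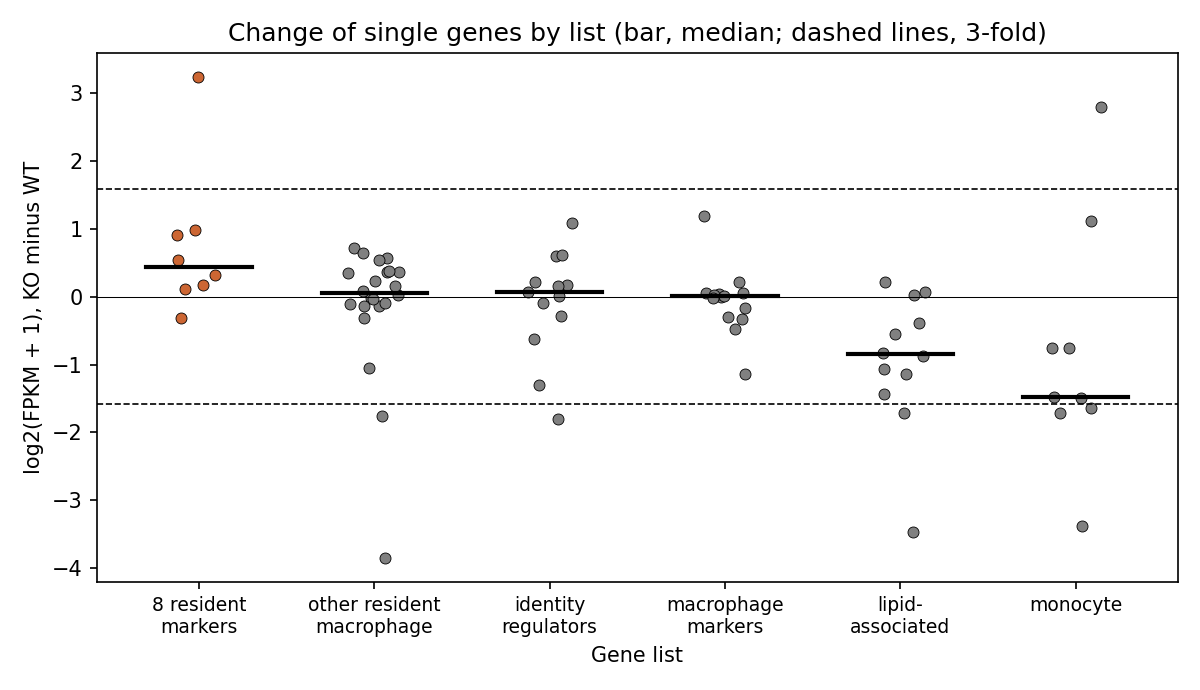
Difference in log2(FPKM + 1), KO minus WT, of single genes (points) in 6 gene lists, with the median of each list (bar) and dashed lines at 3-fold. The medians are 0.43 for the 8 markers, 0.06 for other resident macrophage genes, 0.07 for identity regulators, 0.01 for macrophage markers, -0.85 for lipid-associated genes and -1.47 for monocyte genes.

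Each marker was also set beside its own gene family. The Cd209 genes lie in a cluster on chromosome 8, and all 7 were above 0 in both libraries. In KO 5 of the 7 were higher and 2 lower, and 0 passed 3-fold. Cd209d was at 414 FPKM in WT against 810.4 FPKM in KO, a 1.96-fold difference that was opposite in direction to that of Cd209f. Cd209g was lower in KO, like Cd209f, at 182 and 123 FPKM. Cd209a was at 122 and 131 FPKM and Cd209b at 123 and 129.9 FPKM, differences of 0.09 and 0.08, while Cd209c, at 7.88 and 22.7 FPKM, and Cd209e, at 4.68 and 12.0 FPKM, were higher in KO by 1.42 and 1.20. Cd209f and Cd209g are not independent here. Of the 36-base words in the GENCODE transcripts of Cd209f, 34.6% also occur in those of Cd209g, so reads of either could have been given to the other. Their summed level was 673 FPKM in WT against 517 FPKM in KO, a ratio of 0.768.

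**Figure D4:**
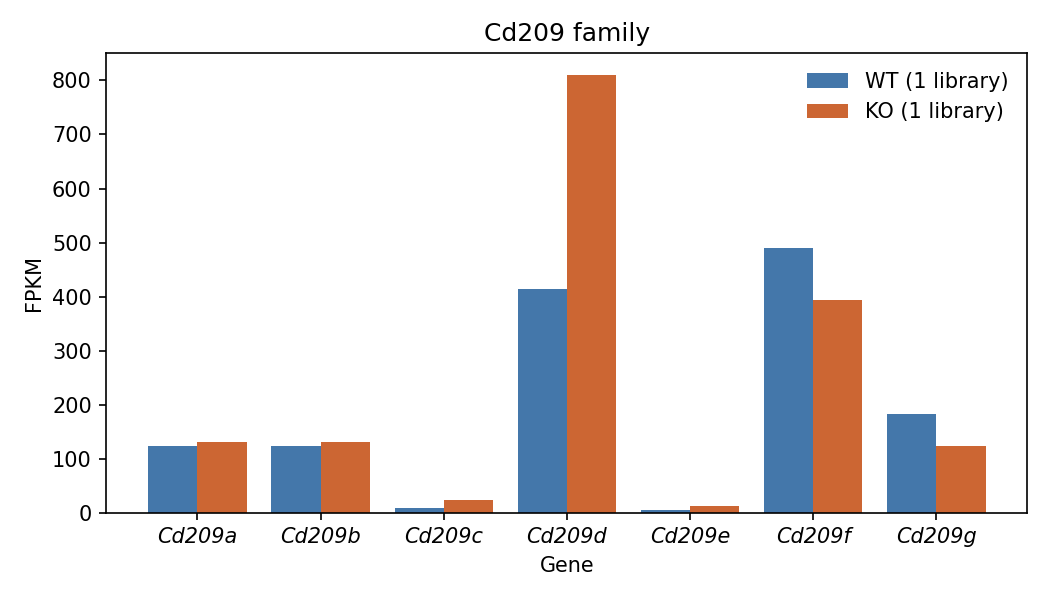
FPKM of the 7 Cd209 genes in the WT library (blue bars) and the KO library (orange bars), 1 library each, on an axis that starts at 0. Cd209d is higher in KO, at 810.4 against 414 FPKM, and Cd209f and Cd209g are lower.

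Several of the markers were the highest of their family in both libraries, but Pf4 and Vsig4 were not, nor was Cd209f in KO. Folr1 and Izumo1r, the other folate receptors, were listed at 0 in both libraries, while the folate carrier Slc46a1 was past 3-fold, at 3.61 FPKM in WT against 16.9 FPKM in KO, and so was Fpgs, which traps folate in cells, at 0.303 and 7.28 FPKM, an estimated 1.42 fragments in WT. For Fcna, 7 of the other 8 ficolins, collectins and their proteases were at 0 in both libraries, Fcnb among them, and Colec12, a scavenger collectin, was at 11.1 and 9.29 FPKM. The B chain of factor XIII, F13b, was listed at 0 in both, and Tgm2, a tissue transglutaminase, was at 28.5 and 8.03 FPKM, past 3-fold. Among carbonyl reductases, Cbr1 was at 3.73 and 6.11 FPKM, Cbr3 at 0 in both, Dcxr at 38.9 and 18.3 FPKM, and Cbr4 at 3.59 FPKM in WT and 0 in KO, past 3-fold as lower. Of the other hyaluronan receptors, Cd44 was at 191 and 181 FPKM and Stab1 at 174 and 205 FPKM, and Stab2 was at 4.19 and 0.362 FPKM, past 3-fold as lower. Of the chemokines related to Pf4, Cxcl2 was above it in both libraries, at 4416 and 5549 FPKM, and Cxcl1 was below it, at 1269 and 1271 FPKM. Vsir, another protein with a V-set domain like that of Vsig4, was at 90.7 and 80.9 FPKM, far above Vsig4. Vsig8 was past 3-fold, at 0.879 and 10.2 FPKM. Of 9 genes for C3, factors of the alternative complement pathway and other complement receptors, Cfd alone passed 3-fold, with a listed 0 in WT against 7.11 FPKM in KO, and the median was -0.00, a sign that turned when the libraries were rescaled. The highest of them were Cfp, which encodes properdin, at 577 and 516 FPKM, and C5ar1, a receptor for C5a, at 298 and 423 FPKM.

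Shared sequence could also bear on Folr2 and Cbr2. Of the 36-base words of Folr2 transcripts, 55.8% lie in Gm10602, an antisense gene that overlaps its exons, and 14.2% of those of Cbr2 lie in the pseudogene Gm11771. Neither of these genes had a row in the table used here. Fcna and F13a1 each have an antisense gene over their exons as well, and since strand was not kept by the library method described, reads from overlapping antisense genes cannot be told apart from those of the marker. Lyve1, Pf4 and Vsig4 shared 0 such words with any other annotated transcript.

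Markers of other cells that express some of these genes were measured beside them. Of 11 platelet markers other than Pf4 and F13a1, 6 were listed at 0 in both libraries (Gp9, Gp5, Gp6, Itgb3, Treml1 and Clec1b), and the 11 summed to 16.5 FPKM in WT against 22.5 FPKM in KO, against 1448 and 2115 FPKM for Pf4 alone. The platelet markers past 3-fold went both ways: Tubb1 (0 and 12.1 FPKM) and Gp1bb (0.243 and 8.76 FPKM) were higher in KO, and Gp1ba (8.84 and 0 FPKM) and Itga2b (2.22 and 0 FPKM) lower. Each of them reached 1 FPKM in a single library, which fixed its direction. Among all genes with a mean between 1 and 10 FPKM, as theirs is, 45.6% passed 3-fold. Of 5 lymphatic endothelial markers in the table other than Lyve1, Prox1, Flt4, Mmrn1 and Reln were at 0 in both libraries, and Pdpn was at 16.5 and 15.3 FPKM. Vsig4 is also made by large peritoneal macrophages. Their factor Gata6 was at 0 in both libraries, and the 13 genes of that list summed to 301 FPKM in WT against 193 FPKM in KO, with 4 of 10 compared higher in KO. Most of that sum was Fn1, at 198 and 117 FPKM, and Timd4, at 53.4 and 25.1 FPKM, which are in other lists too. Past 3-fold as higher were Alox15 (6.50 and 25.7 FPKM), F5 (0.195 and 3.28 FPKM) and Garnl3 (0 and 2.24 FPKM), and as lower Icam2 (3.32 and 0 FPKM) and Itga6 (2.22 and 0 FPKM). F5 and Garnl3 reached 1 FPKM in KO alone, and Icam2 and Itga6 in WT alone, so their directions were fixed by the filter.

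Neutrophil and fibroblast markers were higher in KO, like most of the 8 genes. All 8 of the neutrophil markers compared were higher. Of these, Retnlg, Lcn2, Ngp and Mpo reached 1 FPKM in KO alone, so they could only count as higher. The median was 1.52, and 0.96 with 1 FPKM required in both libraries. The list of 11 summed to 159 FPKM in WT against 533 FPKM in KO, and Camp, Ltf and Elane were at 0 in both. Most of the sum was S100a8, at 73.3 and 182 FPKM, and S100a9, at 63.4 and 301 FPKM and past 3-fold, as were Lcn2 (0.960 and 9.79 FPKM), Ngp (0 and 2.61 FPKM) and Mpo (0 and 2.29 FPKM). All 6 fibroblast markers compared were higher too, and the list of 7 summed to 49.2 and 95.3 FPKM, with Dcn at 35.0 and 62.3 FPKM, Dpt at 5.99 and 11.1 FPKM and Col1a1 at 2.85 and 4.42 FPKM. Col1a2 (0.0948 and 4.75 FPKM) and Pdgfra (0.0246 and 4.98 FPKM) passed 3-fold. Both reached 1 FPKM in KO alone, so among the 6 they could only count as higher. The median of the fibroblast markers was 0.80, and 0.64 with 1 FPKM required in both libraries. The summed level of 9 endothelial markers was 105 and 108 FPKM, most of it Fabp4, and Pecam1 was at 6.67 and 8.70 FPKM, with Emcn, Cldn5 and Egfl7 at 0 in both. That of 8 dendritic cell markers was 126 and 149 FPKM, most of it Cd209a, with Clec9a and Itgae at 0 in both. Of the 4 dendritic cell markers compared, 3 lay above 0 with a median of 1.02, which was 0.09 when a mean of 5 FPKM was required, and Zbtb46 (0 and 9.45 FPKM) and Siglech (1.42 and 8.31 FPKM) passed 3-fold. Adipocyte markers summed to 59.0 and 29.4 FPKM over 7 genes, with Adipoq, Plin1 and Retn at 0 in both, Lipe at 16.8 and 20.1 FPKM, and Pparg (36.4 and 7.78 FPKM) and Cidec (5.83 and 0 FPKM) past 3-fold as lower. Of 6 mesothelial markers, 5 were at 0 in both and Upk3b was at 7.84 FPKM in KO. The part of any of these cells in the differences of the markers was not tested.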

How the data were processed

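RNA was measured in 1 WT and 1 KO library of sorted ATM. The authors deposited a table of FPKM per Ensembl gene. The submitters' processing notes name CASAVA 1.8.2, TopHat2 2.0.9, Cufflinks 2.2.1 and mm9, and the annotation and filters are not given in the sources used here. KO values were read from the mutant's column, since KO is the only library not labelled WT. Of 20749 rows, 401 full repeats were dropped and 18 rows were added to another row of their identifier. Symbols, lengths, coordinates and transcripts came from GENCODE M21 (GRCm38), not the build of the authors. Values were compared as log2(FPKM + 1) for genes at 1 FPKM or more in a library, with a 3-fold threshold as in the study. No p-value was computed, and the counting code was tested on simulated data.

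Fragments were estimated from the smallest recurring FPKM times kilobases in genes with 1 annotated transcript, 0.171 in WT and 0.134 in KO. Genes of the lists were named if past 3-fold, among the 2 highest, or defining the list, and some others were named for their role or direction after their values were seen. The 24 lists, that of the 8 markers among them, were chosen with earlier results of these data known. The shared words were an addition, since no protein sequences were used. Python 3.11.15, pandas 2.3.3 and scipy 1.17.1 were used.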

Additional observations from a re-analysis of the deposited data

How the results depend on the processing

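All 8 markers kept their direction under the pseudocounts, scalings and row treatments tried. Without replicates, a value was taken as moved beyond a 1.5-fold change. The difference of Vsig4 went from 3.24 to 5.42 with a pseudocount of 0.1 and to 6.14 with 0.01, since it is near 0 in WT. Requiring 1 FPKM in both libraries, or a mean of 5, removes Vsig4 and leaves 0 markers past 3-fold. These filters gave 429 and 598 genes higher and 447 and 646 lower, and a 2-fold threshold gave 2380 and 2314. With 2-fold, 1 marker passed, as with 3-fold, and Fcna was at 1.04 with both libraries scaled to the same sum. The median of the 8 lay between 0.43 and 0.48 wherever all 8 were compared, and was 0.32 where a filter removed Vsig4. The median without Vsig4 in the other settings was added after seeing the data. The medians of other lists turned sign with fewer genes left for the Vsig family (from 1.21 to -0.16) and carbonyl reductases (from -0.36 to 0.32) with 1 FPKM in both libraries, and for platelet markers (from -1.26 to 3.72) at a mean of 5. That of the complement genes, near 0, became 0.04 with the same sum and 0.01 with the same upper quartile. Some other list medians moved beyond 1.5-fold without turning sign, such as that of dendritic cell markers from 1.02 to 0.09 at a mean of 5 and 0.03 with no filter. No paired analysis was possible because WT and KO have a single library each. Replicates are missing throughout, and Vsig4 in WT rests on about 1 fragment.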
